A study of Mus musculus with 11 samples.

Results

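The regions described here are the open chromatin regions at the loci of 8 transcription factor genes of naive pluripotency, Esrrb, Tfcp2l1, Prdm14, Zfp42, Klf5, Klf4, Tbx3 and Klf2. They were taken by position, as every region that starts inside a fixed window around each gene. No measured value enters that rule, although the 8 genes were chosen with earlier results of these data known. This gave 99 of the 248336 regions, of which Esrrb had 29, Klf4 15, Tfcp2l1 15, Klf5 11, Prdm14 11, Tbx3 9, Zfp42 6 and Klf2 3. All 99 passed the filter on low counts. Regions are numbered along the chromosome within a locus, so that Klf4 5 is the fifth of the Klf4 locus.

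ATAC-seq, which inserts sequencing adapters into open chromatin with a transposase, was run on mouse embryonic stem (ES) cells of 4 genotypes. B6 is the inbred strain C57BL/6J (line B6 5-1, 3 libraries), and D2 is DBA/2J (line D2 5-5, 3 libraries). B6-13D2 (line QJ 6-1, 2 libraries) is the congenic strain B6.D2-(rs30079041-rs51756099)/Bakr, which carries an interval of D2 chromosome 13 on the B6 background. D2-13B6 (line XE 2-4, 3 libraries) carries a B6 interval of chromosome 13 on the D2 background. Its sample labels name the strain D2.B6-(rs29224292-rs13469455)/Bakr, while the series text gives rs51756099 as the second marker of the interval. All lines grew in medium with 15% fetal bovine serum, LIF, 1 µM PD0325901 (a MEK inhibitor) and 3 µM CHIR99021 (a GSK3 inhibitor). Each genotype is a single cell line and its libraries are technical replicates, so errors and p-values carry no spread between cultures or animals. A difference between genotypes is a difference between 2 cell lines. None of the 8 loci lies on chromosome 13.

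Total counts ran from 15198496 to 43042955 per library, and the 8 loci held 0.142% to 0.149% of them in the B6 and B6-13D2 libraries, 0.0821% to 0.0948% in D2-13B6 and 0.114% to 0.118% in D2. Values are normalised CPM, that is counts scaled to library size and then by TMM factors, which align the bulk of the regions between libraries. A region is called different at an adjusted p under 0.05 in edgeR's quasi-likelihood test over 246840 regions. The TMM factors of the D2-13B6 libraries were 0.769 to 0.997 and those of B6 1.07 to 1.1. Scaling by total counts alone shifts log2 fold changes of D2-13B6 against B6 by -0.30, and results that turn on it are marked.

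In ES cells, LIF acts through STAT3 to maintain Klf4 and Tfcp2l1, while inhibition of GSK3 relieves repression of Esrrb by Tcf7l1 and inhibition of MEK stabilises Klf2. These factors, with Nanog and the core factors Pou5f1 and Sox2, bind each other's enhancers and hold the cells in a state like that of the preimplantation epiblast. Esrrb is an orphan nuclear receptor, Klf2, Klf4 and Klf5 are zinc finger factors with overlapping targets, Prdm14 limits DNA methylation and FGF signalling, Tbx3 is a T-box factor that also acts in early endoderm, and Zfp42 (Rex1) is a widely used marker of the naive state.

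The sequences below are from starts in regions that were more open (Klf4 and Klf2) or less open (Tfcp2l1 and Zfp42) in D2-13B6 than in B6. They are the bases upstream of an annotated start in RefSeq's promoter table, on the gene's own strand (build GRCm38). Capitals mark matches to searched motifs. RefSeq's table matched Klf4, Klf2, Tfcp2l1, Zfp42 and Esrrb, and not Klf5, Prdm14 or Tbx3.
Klf4, chr4:55532476-55532725, minus strand: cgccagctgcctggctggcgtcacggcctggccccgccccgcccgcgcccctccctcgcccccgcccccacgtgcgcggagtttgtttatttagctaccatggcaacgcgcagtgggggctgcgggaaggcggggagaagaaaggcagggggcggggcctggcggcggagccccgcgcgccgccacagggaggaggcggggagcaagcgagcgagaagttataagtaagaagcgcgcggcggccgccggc
Klf2, chr8:72318812-72319032, plus strand: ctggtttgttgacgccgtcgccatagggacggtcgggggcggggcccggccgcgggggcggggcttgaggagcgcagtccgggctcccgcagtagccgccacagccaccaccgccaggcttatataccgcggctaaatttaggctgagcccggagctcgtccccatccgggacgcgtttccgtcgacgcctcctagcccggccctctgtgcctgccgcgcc
Tfcp2l1, chr1:118627695-118627944, plus strand: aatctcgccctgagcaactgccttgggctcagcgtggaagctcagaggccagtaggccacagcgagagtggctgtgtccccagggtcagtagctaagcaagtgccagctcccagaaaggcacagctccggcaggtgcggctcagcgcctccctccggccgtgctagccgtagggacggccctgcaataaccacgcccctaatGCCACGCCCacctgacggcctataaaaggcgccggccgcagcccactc
Zfp42, chr8:43307010-43307259, minus strand: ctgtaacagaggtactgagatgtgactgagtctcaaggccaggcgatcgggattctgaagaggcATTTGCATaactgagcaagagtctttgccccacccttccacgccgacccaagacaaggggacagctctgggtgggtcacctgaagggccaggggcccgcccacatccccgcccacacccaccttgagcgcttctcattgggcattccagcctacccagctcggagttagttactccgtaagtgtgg

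The Klf4 stretch holds 32 CpG dinucleotides in 250 bp and the Klf2 stretch 28 in 221 bp, against a median of 6 over the 32851 promoters of the table. The Tfcp2l1 stretch holds 16, the Zfp42 stretch 9 and the Esrrb stretches upstream of both of its listed starts hold 6 and 3. The regions at those Esrrb starts were not called in D2-13B6 against B6. Over the whole strongest start regions, CpG per 100 bp was 5.79 at Klf4, 5.32 at Tbx3, 7.66 at Klf5 and 2.73 at Klf2, all higher in D2-13B6. It was 1.4 at Esrrb, 1.63 at Tfcp2l1, 2.09 at Zfp42 and 3.58 at Prdm14, all lower, so the groups overlapped. The capitals in Tfcp2l1 are a match to the Klf motif GGGNGTGGC on the reverse strand, which 5.11% of all promoter stretches hold. Those in Zfp42 are a match to the Pou octamer ATGCAAAT on the reverse strand, held by 1.6%. A match is a description of the letters and not a measured site.

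The next set shows DNA of other regions on the plus strand of GRCm38. It holds the 2 regions with the largest relative gain in D2-13B6, near Klf4, a region near Klf5 with almost no counts in the D2 and D2-13B6 libraries, and the 300 bp richest in motif matches inside 2 wide regions within Esrrb and Tfcp2l1, the first over a coding exon and an internal start and the second in introns.
Klf4 5, chr4:55488649-55488948: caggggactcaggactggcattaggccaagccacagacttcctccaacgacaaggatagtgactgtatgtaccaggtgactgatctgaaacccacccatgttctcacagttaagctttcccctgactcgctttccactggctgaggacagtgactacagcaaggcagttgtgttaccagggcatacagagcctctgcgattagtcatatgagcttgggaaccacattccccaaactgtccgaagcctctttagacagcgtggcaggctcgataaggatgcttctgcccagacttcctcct
Klf4 15, chr4:55541721-55542020: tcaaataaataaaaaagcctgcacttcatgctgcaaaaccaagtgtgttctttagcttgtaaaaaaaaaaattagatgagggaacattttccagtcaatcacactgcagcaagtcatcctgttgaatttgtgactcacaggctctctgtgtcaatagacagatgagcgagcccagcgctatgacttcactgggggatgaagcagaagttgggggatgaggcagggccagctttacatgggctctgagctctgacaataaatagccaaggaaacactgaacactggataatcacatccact
Klf5 1, chr14:99283754-99283935: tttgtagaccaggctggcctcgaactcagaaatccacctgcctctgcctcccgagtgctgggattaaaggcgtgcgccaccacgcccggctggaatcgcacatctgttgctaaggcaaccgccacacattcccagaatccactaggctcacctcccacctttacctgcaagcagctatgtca
Esrrb 24, chr12:86501446-86501745: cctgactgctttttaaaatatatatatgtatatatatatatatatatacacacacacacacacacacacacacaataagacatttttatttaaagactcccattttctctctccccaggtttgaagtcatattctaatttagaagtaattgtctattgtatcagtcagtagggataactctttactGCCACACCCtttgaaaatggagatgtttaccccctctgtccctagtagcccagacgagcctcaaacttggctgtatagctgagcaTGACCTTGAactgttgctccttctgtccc
Tfcp2l1 7, chr1:118648098-118648397: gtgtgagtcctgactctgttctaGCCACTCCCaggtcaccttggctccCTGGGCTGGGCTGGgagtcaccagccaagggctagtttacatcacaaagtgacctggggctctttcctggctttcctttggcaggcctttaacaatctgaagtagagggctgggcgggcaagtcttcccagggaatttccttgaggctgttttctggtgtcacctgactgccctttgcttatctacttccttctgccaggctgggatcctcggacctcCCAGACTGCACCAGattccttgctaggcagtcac

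In Esrrb 24 the capitals mark a Klf match and a match to the Esrrb motif TCAAGGTCA, both on the reverse strand. In Tfcp2l1 7 they mark a Klf match and 2 matches to the Tfcp2l1 motif, a pair of CCAG words 6 bases apart, and no printed match overlaps another. The Klf4 5 and Klf4 15 stretches hold none of the 7 motifs searched, which were those named above together with Stat (TTCCNGGAA), Sox (CCATTGTT) and CTCF. Over all member regions, both strands, the Esrrb motif occurred 0.773 times per 10 kb against 0.405 over all regions, and the CTCF motif 0.338 against 1.03. The Klf motif occurred 1.4 times per 10 kb in both, the Tfcp2l1 motif 1.35 against 1.5, the octamer 0.58 against 0.84, Sox 0.58 against 0.477 and Stat 0.29 against 0.364. Stretches of 300 bp around the region centres that hold the Esrrb motif made up 4 of the 99 member regions and 1.37% of all regions.

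The 99 regions were wide and strongly open. Their median width was 1295 bp against 548 bp over all regions, and 19 of them (19.2%) were at least 3 kb wide against 1.34% of all regions. The widest, Tfcp2l1 7, spanned 11327 bp. The median level over the lines was 5.47 CPM against 1.83 over all regions, and GC content was close to that of the table (median 49.2% against 48.1%). Such width means that a member region can hold several regulatory elements, which one count sums.

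D2-13B6 was the least open line in most of these regions, though not in the sum of every locus. It was the lowest of the 4 lines in 76 of the 99 regions, and B6-13D2 was the highest in 53. Against B6, 62 regions were lower in D2-13B6 and 7 higher by edgeR's adjusted p, while over all tested regions 20.1% were lower and 21.6% higher (41.7% called either way). The median log2 fold change was -0.66 over the members and -0.13 over all regions. D2 against B6 gave 32 lower and 5 higher members against 8.8% and 13.7% of all regions (22.5% either way), with medians of -0.27 and -0.01. D2 against B6-13D2 gave 28 lower and 7 higher, against 7.24% and 11.6% of all regions (18.8% either way). The last count was 23 without B6-13D2 replicate 1 and 18 without its replicate 2. B6-13D2 against B6 gave no call at these loci, where 0.474% of all regions were called. The comparisons against B6 share the B6 libraries, and in all of them fewer open cells and less opening per cell cannot be told apart.

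**Figure D1:**
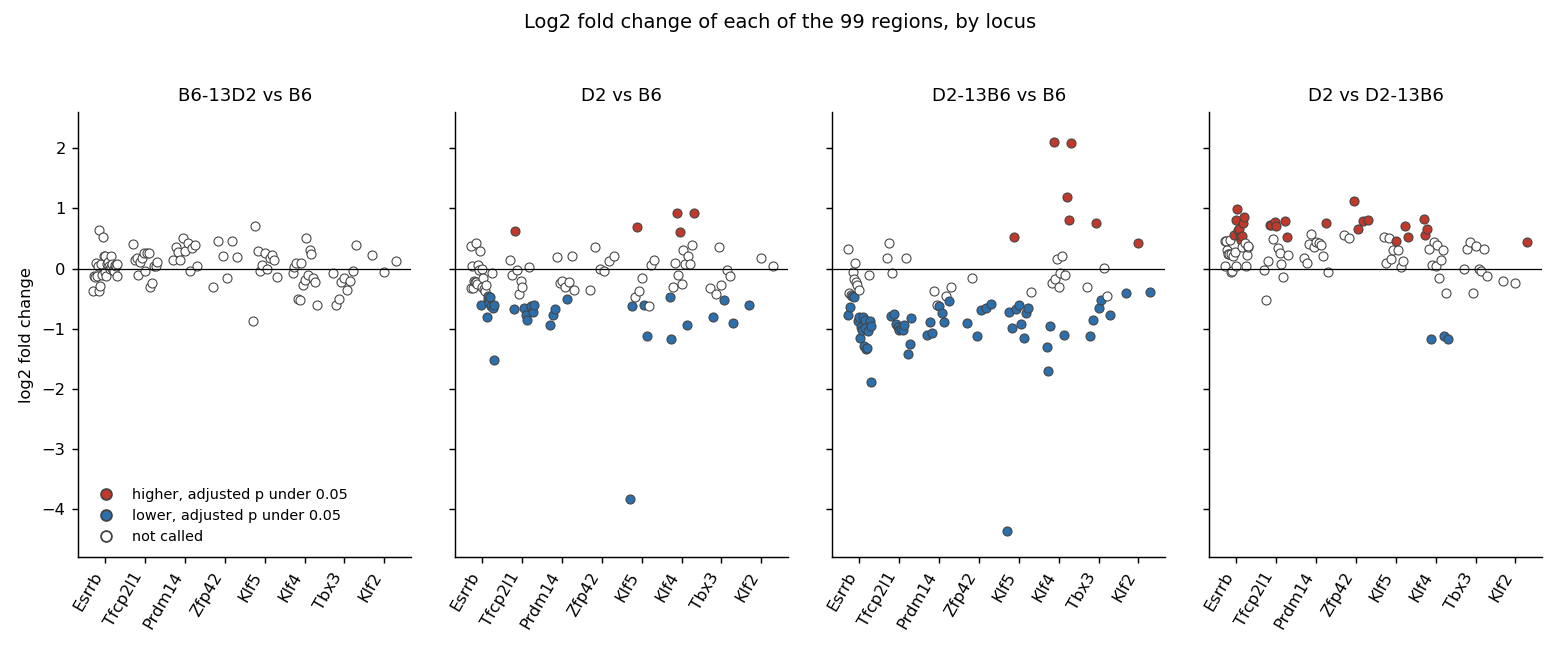
Each point is a region, placed by locus on the horizontal axis with its log2 fold change on the vertical axis, in 4 comparisons, and filled where edgeR's adjusted p was under 0.05. Against B6, D2-13B6 holds 62 lower (blue) and 7 higher (red) regions, D2 holds 32 and 5, and B6-13D2 none. The low Klf5 point is region Klf5 1, whose fitted value rests on libraries at 0.

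The calls were also counted by width and by distance from the gene starts. Of the 47 member regions at least 1 kb wide and away from the member gene's own starts, 38 were lower in D2-13B6 than in B6 and 1 was higher, while 42.3% of all regions of that width away from starts were lower. In D2 against B6, 22 of the 47 were lower, with 16.9% in the table. In D2 against D2-13B6, 20 of the 47 were higher, with 25.1% in the table. Of the 14 regions within 1000 bp of an own start, 7 were lower and 4 higher in D2-13B6 than in B6, against 14.5% lower and 44% higher of all promoter regions. Of the 19 members of at least 3 kb, 15 were lower and 3 higher, against 30.6% and 33.7% of all regions that wide, and 12 of the 19 were higher in D2 than in D2-13B6, against 20.6%.

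Summed over a locus, accessibility in D2-13B6 was well below B6 at Esrrb, Tfcp2l1, Prdm14 and Zfp42. The Esrrb sums were 398, 410 and 408 CPM in B6, 390 and 430 in B6-13D2, 206, 216 and 242 in D2-13B6, and 326, 320 and 285 in D2. The Tfcp2l1 sums were 210, 213 and 219 in B6, 232 and 245 in B6-13D2, 111, 115 and 123 in D2-13B6, and 180, 173 and 177 in D2. The ratio of D2-13B6 over B6 was 0.547 at Esrrb and 0.543 at Tfcp2l1, and at both loci no D2-13B6 library overlapped another line. The Prdm14 sums were 77.3, 77.5 and 80.7 in B6, 83.4 and 91.8 in B6-13D2, 44.6, 45.3 and 48 in D2-13B6, and 61.7, 59.1 and 56.8 in D2, a ratio of 0.586 for D2-13B6 over B6. The Zfp42 sums were 34.7, 34.4 and 36.5 in B6, 40.3 and 40.3 in B6-13D2, 23.9, 23.3 and 19.4 in D2-13B6, and 38.1, 31.9 and 44.3 in D2, a ratio of 0.631. At Zfp42 D2-13B6 lay below all other lines without overlap, while the D2 and B6 libraries overlapped. B6-13D2 lay above B6 without overlap at Prdm14 (ratio 1.12), Tfcp2l1 (1.11) and Zfp42 (1.14), though no region there was called between these lines.

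With TMM scaling, the D2-13B6 sums of the Klf and Tbx3 loci were near the B6 level. The Klf5 sums were 97.6, 98.2 and 100 CPM in B6, 107 and 97.9 in B6-13D2, 88.2, 96.5 and 72.4 in D2-13B6, and 108, 95.4 and 116 in D2, and the D2-13B6 libraries lay just below B6 (ratio 0.869). For Klf4, Tbx3 and Klf2 the D2-13B6 and B6 libraries overlapped, at ratios of 0.924, 0.995 and 1.11. The Tbx3 sums were 125, 145 and 132 in B6, 107 and 117 in B6-13D2, 117, 159 and 124 in D2-13B6, and 130, 130 and 114 in D2, so that B6-13D2 lay below B6 without overlap (ratio 0.839). These ratios turn on the scaling. With total counts in place of TMM, the log2 ratio of D2-13B6 over B6 was -0.42 at Klf4 (TMM -0.11), -0.31 at Tbx3 (-0.01), -0.51 at Klf5 (-0.20) and -0.16 at Klf2 (0.15), where the sign changed. Klf4 ran from 198 to 217 in B6, 195 and 214 in B6-13D2, 171 to 220 in D2-13B6 and 194 to 208 in D2. Per kb of region, the B6 level was 4.84 at Zfp42, the lowest, and 7.48 at Klf2, the highest. Locus sums are given as a description, since 3 against 3 libraries cannot reach an exact p below 0.1. For B6-13D2, with 2 libraries, that limit is higher, and no member region was called between B6-13D2 and B6.

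**Figure D2:**
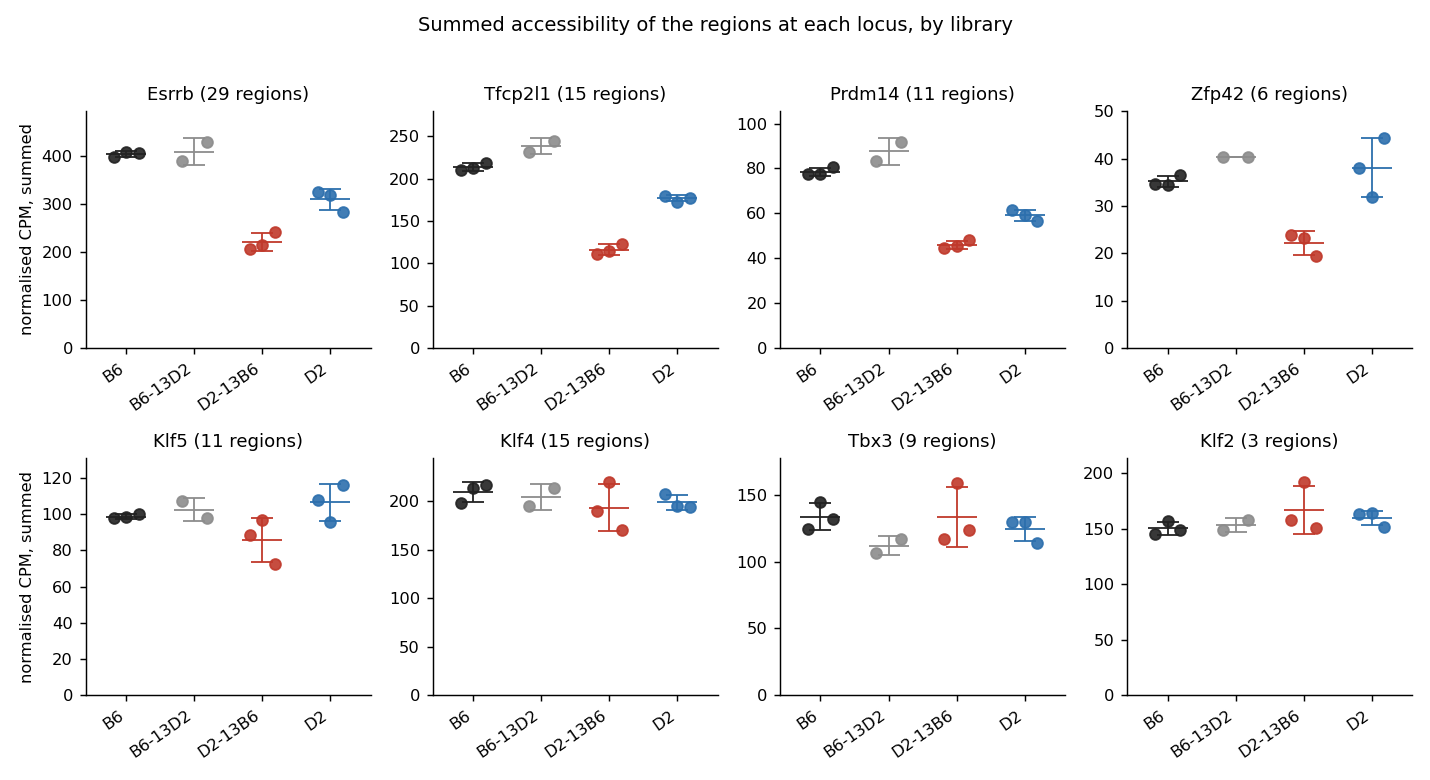
Points are libraries, with summed normalised CPM of all regions of a locus on the vertical axis from 0, and bars are the line mean ± SD. The 3 D2-13B6 libraries sit apart and lowest at Esrrb, Tfcp2l1, Prdm14 and Zfp42, and overlap B6 at Klf4, Tbx3 and Klf2.

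Esrrb lies on chromosome 12 (GENCODE M21, 86361117 to 86521628, plus strand). In D2-13B6, 19 of its 29 regions were lower than in B6 and none higher, against 20.1% and 21.6% of all regions. The median log2 fold change at Esrrb was -0.80. Its strongest region, Esrrb 24 (86500251 to 86506911), covers a coding exon and an annotated start inside the gene, 142464 bp from the gene's 5′ end. It measured 70.7, 68.7 and 67.5 CPM in B6, 63.9 and 72.1 in B6-13D2, 26.4, 27.7 and 28.9 in D2-13B6, and 55.5, 48.9 and 44.7 in D2. B6 and B6-13D2 overlapped, D2 lay below them and D2-13B6 below D2, without overlap. The log2 fold change of D2-13B6 against B6 was -1.32 ± 0.17 (SE, edgeR adjusted p = 5.69e-10) and D2 exceeded D2-13B6 by 0.85 ± 0.17 (edgeR adjusted p = 4.36e-05). D2 against B6 gave -0.47 ± 0.16 (edgeR adjusted p = 0.0275), a call lost on leaving out any B6 library or D2 replicate 2 or 3 (-0.49 to -0.40).

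The lower regions of Esrrb lay towards its 3′ end. Of the 15 regions at least 90 kb downstream of the 5′ end, a line drawn after the values were seen, 14 were lower in D2-13B6 than in B6 and 9 were lower in D2. Of the 14 regions before it, 5 and 1 were lower. Over all regions 20.1% and 8.8% were lower, and among those at least 1 kb wide away from starts 42.3% and 16.9%. The intronic region Esrrb 23 (86495911 to 86499605) measured 30.1, 30.4 and 31.9 CPM in B6, 31.7 and 33.5 in B6-13D2, 10.3, 13 and 13.2 in D2-13B6, and 21.5, 20.5 and 19.9 in D2. Its log2 fold change of D2-13B6 against B6 was -1.34 ± 0.17 (SE, edgeR adjusted p = 2.95e-10) and that of D2 against B6 -0.58 ± 0.16 (edgeR adjusted p = 0.00544). Beyond the gene, the 325 bp intergenic region Esrrb 29 (86525727 to 86526051) measured 2.53, 2.38 and 3.11 in B6, 2.59 and 3.09 in B6-13D2, 0.286, 0.879 and 1.07 in D2-13B6, and 1.12, 1.04 and 0.63 in D2. Here both lines of D2 background were low and overlapped, at -1.88 ± 0.30 (edgeR adjusted p = 3.28e-07) and -1.52 ± 0.29 (edgeR adjusted p = 3.97e-05) against B6. The regions at the 2 upstream starts with RefSeq promoter entries, Esrrb 3 and Esrrb 10, were not called in that comparison, with log2 fold changes of -0.41 and 0.10.

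**Figure D3:**
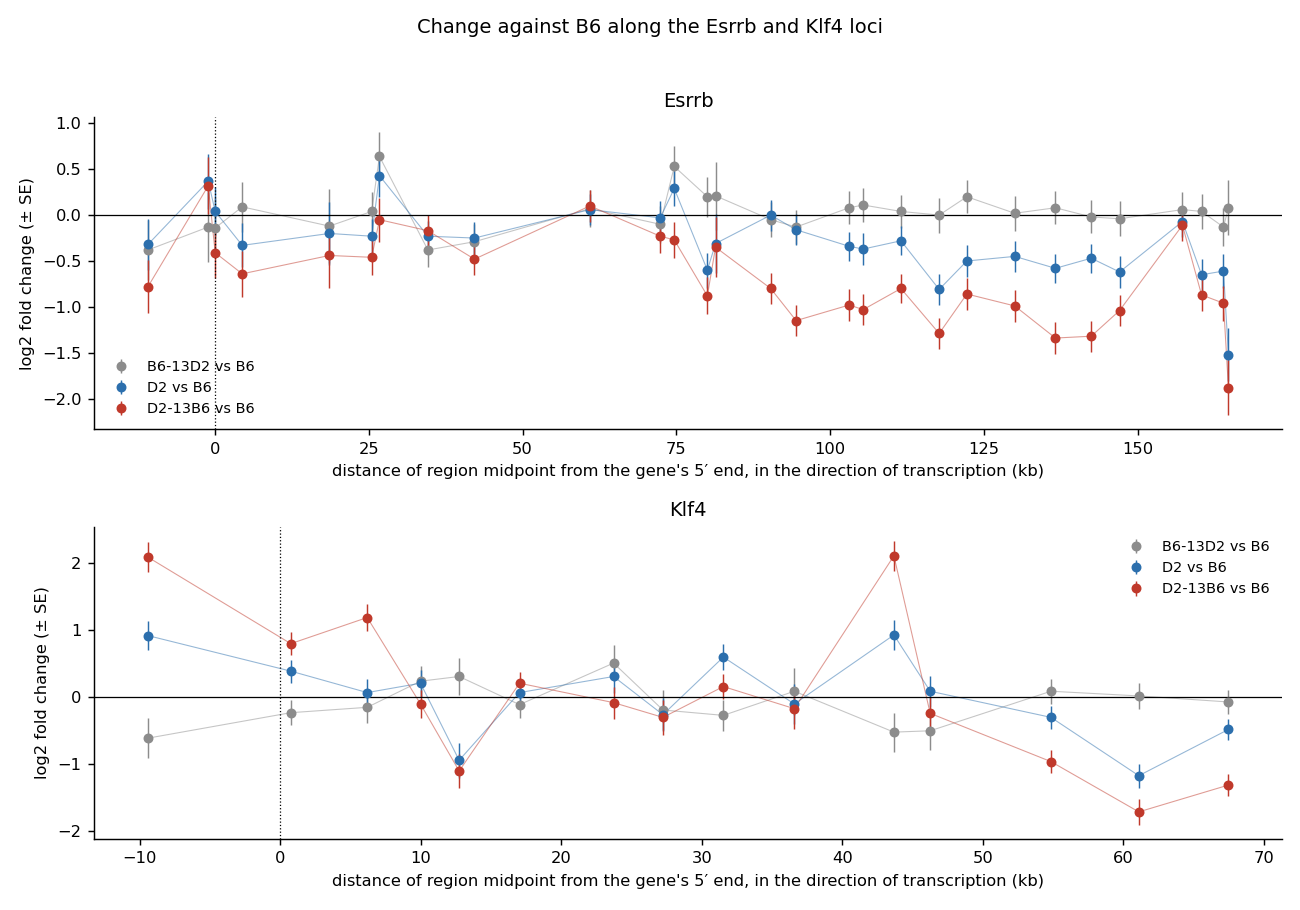
Log2 fold change against B6 (± SE) of each region at Esrrb and Klf4, by distance of its midpoint in kb from the gene's 5′ end in the direction of transcription. At Esrrb, D2-13B6 (red) lies below D2 (blue) through the distal part of the gene, with 14 of 15 regions lower past 90 kb, against 20.1% of all regions. At Klf4, D2-13B6 is high at Klf4 13, Klf4 14 and Klf4 15, near and upstream of the start, and at Klf4 5, 43668 bp downstream. It is low in the far 3′ regions Klf4 1, Klf4 2 and Klf4 3 and at Klf4 11, 12735 bp downstream.

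Tfcp2l1, a target of LIF signalling, lies on chromosome 1 (118627945 to 118685168, plus strand). It had 11 of 15 regions lower in D2-13B6 than in B6 and none higher, against 20.1% and 21.6% of all regions. Its start region, Tfcp2l1 5 (118623874 to 118629644), measured 41.5, 40.5 and 45.4 CPM in B6, 45 and 46.4 in B6-13D2, 24.2, 27.4 and 23.9 in D2-13B6, and 44.3, 37.9 and 42.7 in D2. Only D2-13B6 was low, at -0.76 ± 0.16 against B6 (SE, edgeR adjusted p = 0.000104), and D2 was 0.73 ± 0.16 above it (edgeR adjusted p = 0.000355). The wide region Tfcp2l1 7 (118640697 to 118652023), which covers introns of the gene and the pseudogene Gm28882, measured 81, 87 and 84.9 in B6, 95.2 and 105 in B6-13D2, 40.4, 44.1 and 43.8 in D2-13B6, and 71.4, 69.9 and 76.6 in D2. D2-13B6 again stood alone at the bottom, at -0.98 ± 0.17 against B6 (edgeR adjusted p = 1.12e-06). Downstream of the gene, Tfcp2l1 14 (118686084 to 118688356) held 15.7, 16.2 and 15.5 in B6, 16.5 and 16.3 in B6-13D2, 6, 6.48 and 7.39 in D2-13B6, and 9.86, 9.4 and 9.43 in D2. There both D2-background lines were below both B6-background lines, at -1.25 ± 0.17 for D2-13B6 (edgeR adjusted p = 2.44e-09) and -0.72 ± 0.16 for D2 (edgeR adjusted p = 0.000478) against B6.

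Prdm14 lies on chromosome 1 (13113457 to 13127163, minus strand). It had 7 of 11 regions lower in D2-13B6 than in B6 and none higher, against 20.1% and 21.6% of all regions. Its start region, Prdm14 8 (13124815 to 13129259), measured 29.2, 32 and 29.4 CPM in B6, 26.8 and 31.7 in B6-13D2, 16.1, 16.6 and 16.3 in D2-13B6, and 21.9, 22.1 and 20.2 in D2. The D2-13B6 libraries were lowest without overlap, at -0.89 ± 0.16 against B6 (SE, edgeR adjusted p = 6.03e-06), and D2 lay between, not called against D2-13B6 (0.39 ± 0.16, edgeR adjusted p = 0.072). The intergenic region Prdm14 1 (13103238 to 13105428), downstream of the gene, measured 13.3, 12.2 and 14.4 in B6, 13.8 and 15.8 in B6-13D2, 5.74, 5.73 and 7.19 in D2-13B6, and 6.95, 6.88 and 7.05 in D2. This region followed the background, with D2-13B6 and D2 overlapping at -1.10 ± 0.17 (edgeR adjusted p = 1.09e-07) and -0.94 ± 0.17 (edgeR adjusted p = 1.28e-05) against B6. Upstream, Prdm14 10 (13131340 to 13132701) was low in D2-13B6 alone, at a mean ± SD of 5.60 ± 0.529 (n = 3). The level was 8.16 ± 0.359 in the B6 libraries (n = 3), 10.7 ± 0.622 for B6-13D2 (n = 2) and 9.47 ± 0.775 for D2 (n = 3).

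Zfp42 lies on chromosome 8 (43295063 to 43306980, minus strand). It had 5 of 6 regions lower in D2-13B6 than in B6, against 20.1% of all regions. In D2 against D2-13B6, 4 of the 6 were higher, against 8.53% of all regions. No Zfp42 region was called between D2 and B6, where log2 fold changes ran from -0.35 to 0.36. The start region, Zfp42 6 (43306530 to 43308684), which covers an untranslated exon, measured 15.3, 14.1 and 16.1 CPM in B6, 18.1 and 16.6 in B6-13D2, 11.1, 11.1 and 8.08 in D2-13B6, and 17.2, 15.3 and 20.2 in D2. D2 exceeded D2-13B6 there by a log2 fold change of 0.80 ± 0.17 (SE, edgeR adjusted p = 0.000144). The largest difference at the locus was in Zfp42 3 (43295468 to 43296345) over the coding exon, at 1.13 ± 0.21 (edgeR adjusted p = 1.36e-05), with 4.31 ± 1.05 in D2 and 1.95 ± 0.260 in D2-13B6 (SD, n = 3 each).

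The strongest start regions of Klf4, Tbx3, Klf2 and Klf5 went the other way. Klf4 14 (chromosome 4, 55528870 to 55534550) covers the start and all but the 3′ end of the gene (55527143 to 55532466, minus strand) and measured 41.6, 39.8 and 37.7 CPM in B6, 34.3 and 33.6 in B6-13D2, 73.7, 76.1 and 57.8 in D2-13B6, and 54.7, 50.1 and 51.7 in D2. The order D2-13B6, D2, B6, B6-13D2 had no overlap, and D2-13B6 was 0.80 ± 0.17 above B6 (SE, edgeR adjusted p = 4.98e-05). Tbx3 4 (chromosome 5, 119667923 to 119672508), over the start of Tbx3 and of the antisense gene Tbx3os1, measured 40.9, 50.1 and 45 in B6, 36.6 and 41.1 in B6-13D2, 62.8, 98.9 and 68 in D2-13B6, and 59.3, 59 and 55.6 in D2. D2-13B6 was highest, at 0.76 ± 0.17 above B6 (edgeR adjusted p = 0.000207), and 0.53 to 0.88 above it when single libraries were left out. Neither start region was called between D2 and B6, at 0.39 ± 0.17 (edgeR adjusted p = 0.0788) and 0.36 ± 0.17 (edgeR adjusted p = 0.134).

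The gains at Klf2 and Klf5 were smaller. Klf2 2 (chromosome 8, 72315242 to 72326017), which covers the whole gene, measured 88.7, 94 and 91.4 CPM in B6, 83.4 and 92.2 in B6-13D2, 116, 145 and 105 in D2-13B6, and 106, 106 and 98.2 in D2. D2-13B6 was 0.42 ± 0.17 above B6 (SE, edgeR adjusted p = 0.0407), a call kept only when D2-13B6 replicate 3 or D2 replicate 2 was left out and lost on leaving out each of the other 9 libraries (0.27 to 0.45). It was also lost with total counts (0.11, edgeR adjusted p = 0.346) and with a replicate block (0.41, edgeR adjusted p = 0.0601). Klf5 4 (chromosome 14, 99297935 to 99300140), over the Klf5 start, measured 28.7, 27.5 and 29.8 in B6, 32.7 and 23 in B6-13D2, 43, 50.2 and 30.9 in D2-13B6, and 48, 37.4 and 53.6 in D2. Both D2-background lines lay above all B6 libraries, at 0.53 ± 0.18 for D2-13B6 (edgeR adjusted p = 0.0122) and 0.69 ± 0.18 for D2 (edgeR adjusted p = 0.00217). The D2-13B6 call was lost without B6 replicate 2 or D2-13B6 replicate 2 (0.37 to 0.50) and with total counts (0.21, edgeR adjusted p = 0.144).

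**Figure D4:**
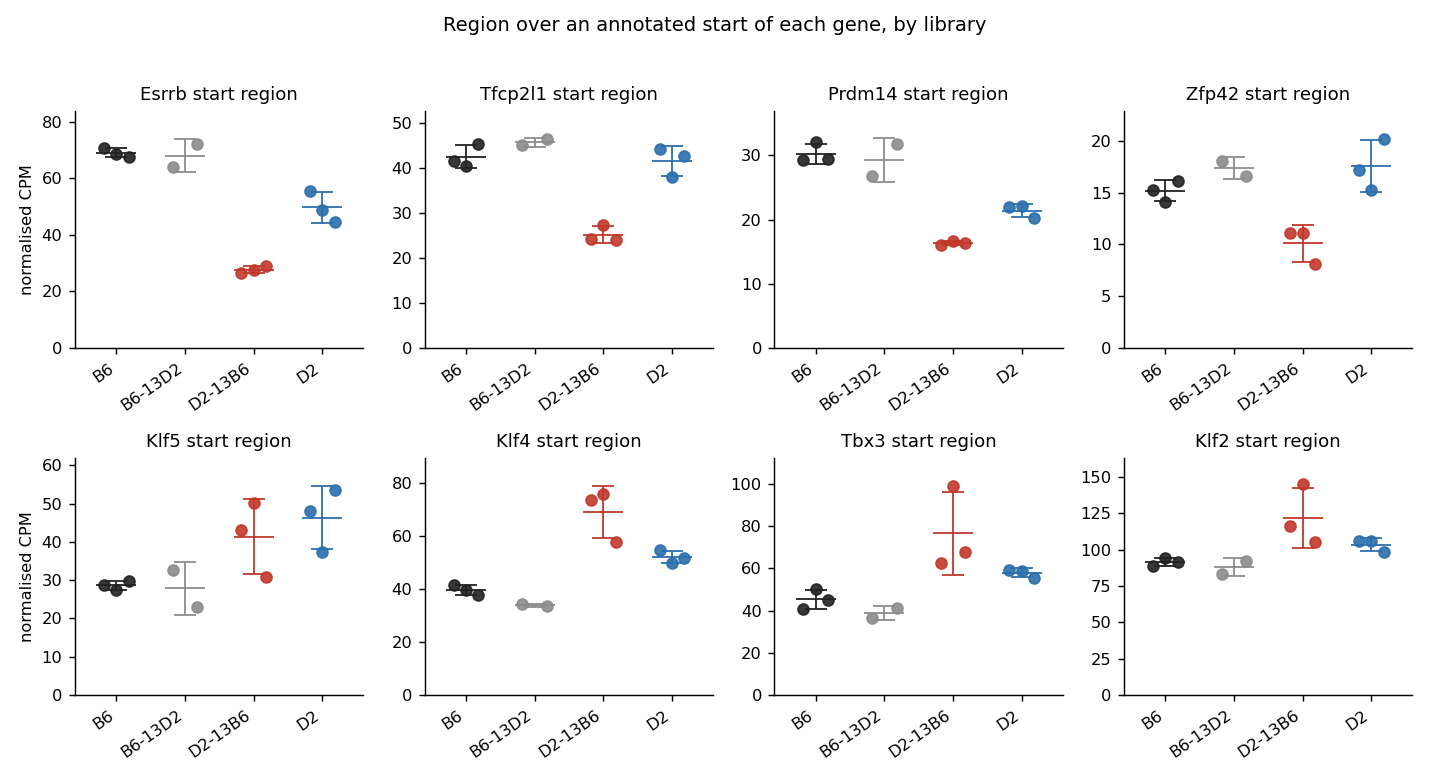
Points are libraries, with normalised CPM of the strongest region at an annotated start of each gene on the vertical axis from 0, and bars are the line mean ± SD. D2-13B6 is the lowest line at Esrrb, Tfcp2l1, Prdm14 and Zfp42 and the highest at Klf4, Tbx3 and Klf2.

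The Klf4 locus had 4 regions higher and 4 lower of 15 in D2-13B6 against B6, near the 21.6% and 20.1% of all regions. The largest gains were in short intergenic regions. Klf4 5 (55488594 to 55489002), 43668 bp downstream of the gene's 5′ end, measured 1.93, 1.83 and 2.67 CPM in B6, 1.73 and 1.25 in B6-13D2, 7.46, 12.5 and 7.98 in D2-13B6, and 3.35, 4.66 and 4.27 in D2. Klf4 15 (55541680 to 55542061), which lies upstream and was named after its values were seen, measured 1.83, 1.83 and 1.93 in B6, 1 and 1.44 in B6-13D2, 8.96, 9.33 and 5.5 in D2-13B6, and 3.32, 3.75 and 3.52 in D2. Both had D2-13B6 highest and D2 next without overlap, at log2 fold changes of 2.11 ± 0.22 (SE, edgeR adjusted p = 4.19e-13) and 2.09 ± 0.22 (edgeR adjusted p = 6.49e-13) for D2-13B6 and 0.93 ± 0.22 (edgeR adjusted p = 0.00097) and 0.92 ± 0.22 (edgeR adjusted p = 0.00114) for D2 against B6.

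Of the 4 losses at Klf4, those of Klf4 1, Klf4 2 and Klf4 3 were in the far 3′ cluster, which holds its widest region. The other, Klf4 11 (55519326 to 55520136), lay 12735 bp downstream of the gene's 5′ end and was named after its values were seen. Its log2 fold change against B6 was -1.10 ± 0.26 (SE, edgeR adjusted p = 0.000418). Klf4 3 (55473478 to 55481768), an intergenic region of 8291 bp, measured 73.8, 78.6 and 83.6 CPM in B6, 77.8 and 89.3 in B6-13D2, 38.3, 46.2 and 37.1 in D2-13B6, and 69, 60.6 and 62.1 in D2. D2-13B6 was lowest, at -0.96 ± 0.17 against B6 (SE, edgeR adjusted p = 2.36e-06), and D2 was 0.66 ± 0.17 above it (edgeR adjusted p = 0.00171). Klf4 2 (55470717 to 55472029) measured 9.58, 12.2 and 8.75 in B6, 9.1 and 11.5 in B6-13D2, 2.99, 2.79 and 3.51 in D2-13B6, and 4.98, 4.63 and 3.9 in D2. It was low in both D2-background lines, at -1.71 ± 0.19 (edgeR adjusted p = 4.25e-12) and -1.17 ± 0.18 (edgeR adjusted p = 7.31e-07) against B6.

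At Tbx3, Klf2 and Klf5 too, regions away from the start were lower in D2-13B6. Tbx3 had 5 of 9 regions lower, against 20.1% of all regions. Among these 5, Tbx3 5 (119679544 to 119684517) covers coding exons and another annotated start of Tbx3 and was named after its values were seen. It measured 34.8, 42.5 and 38.4 CPM in B6, 35.4 and 33.7 in B6-13D2, 24.3, 26.5 and 23.1 in D2-13B6, and 34.3, 32 and 29.8 in D2. D2-13B6 was lowest without overlap, at -0.65 ± 0.16 against B6 (SE, edgeR adjusted p = 0.00086), so the starts of Tbx3 differed in direction. Tbx3 2 (119656215 to 119659013), in an intron of Tbx3os1 upstream of Tbx3, measured 15.5, 15.7 and 16.8 CPM in B6, 9.19 and 11.9 in B6-13D2, 6.68, 6.85 and 8.46 in D2-13B6, and 9.7, 9.91 and 7.97 in D2, so that B6 alone was high. Klf2 3 (72329112 to 72336052), downstream of Klf2, measured 44.2, 49 and 45.6 in B6, 49.5 and 51.7 in B6-13D2, 31.9, 38.4 and 35.2 in D2-13B6, and 48.8, 49.6 and 45.2 in D2. D2-13B6 was lowest without overlap, but its call of -0.39 ± 0.16 against B6 (SE, edgeR adjusted p = 0.0458) was kept only without D2-13B6 replicate 2 or 3 or D2 replicate 2, and gave -0.43 to -0.33 where it was lost. RLE size factors (-0.32, edgeR adjusted p = 0.146) and a replicate block (-0.40, edgeR adjusted p = 0.0522) also ended it.

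Klf5 had 9 of its 11 regions lower in D2-13B6 than in B6, against 20.1% of all regions. Klf5 8 (99315014 to 99316124), over the 3′ end of the gene, measured 5.22, 5.06 and 4.55 CPM in B6, 6.73 and 4.38 in B6-13D2, 2.23, 2.27 and 2.13 in D2-13B6, and 2.23, 1.79 and 2.78 in D2. Both D2-background lines were low, at -1.16 ± 0.21 (SE, edgeR adjusted p = 5.02e-06) and -1.13 ± 0.21 (edgeR adjusted p = 2.6e-05) against B6. Klf5 1 (99283754 to 99283935), of which 78.6% is annotated as repeat, held 19, 13 and 16 counts in B6, 9 and 7 in B6-13D2, 0, 0 and 3 in D2-13B6, and 0, 0 and 5 in D2. This region, named after its values were seen, was called lower in D2-13B6 (edgeR adjusted p = 1.33e-05) and in D2 (edgeR adjusted p = 8.68e-05), and no fold is given against libraries at 0. The part that strain differences in this repeat sequence have in the counts was not tested.

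Each congenic line, set against the strain of its background, addresses whether genotype on chromosome 13 acts in trans on these loci. The first markers named for the intervals of these lines differ, so the exchanges need not cover the same segment. On the B6 background the D2 interval gave no call in 99 regions by edgeR or DESeq2, with log2 fold changes from -0.88 to 0.70. At an unadjusted p under 0.05 there were 9 regions, 6 higher and 3 lower, or 9.09% against 7.48% of all regions. A fit of the B6 and B6-13D2 libraries alone called 2 regions, Tbx3 2 (-0.60 ± 0.12, edgeR adjusted p = 0.00109) and Klf5 2 (0.71 ± 0.19, edgeR adjusted p = 0.0278). The share of all regions called in that fit was not counted, so the 2 calls have no table-wide rate beside them.

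With D2 as the background, D2 exceeded D2-13B6 in 28 regions and was lower in 3, against 8.53% and 15.2% of all regions (23.7% either way), with a median log2 fold change of 0.35 against 0.04. Without D2-13B6 replicate 3 the count was 47, and with total counts it was 54, of which 51 were higher. Of the regions higher in D2, 10 were at Esrrb, 6 at Tfcp2l1, 4 at Zfp42, 3 at Klf4, 3 at Klf5, 1 at Prdm14, 1 at Klf2 and none at Tbx3. The 3 lower regions were Klf4 5, Klf4 13 and Klf4 15. In all, 25 regions were lower in D2-13B6 than in both B6 and D2, and 32 were lower in both D2-13B6 and D2 than in B6, counts that share the D2-13B6 or the B6 libraries. The share of all regions with these joint calls was not counted, so neither number can be read as particular to these loci. Median log2 fold changes of all regions on the chromosomes of these loci were 0.04 to 0.08 in this comparison. Here and in the interaction, an interval effect and any other difference between the cell lines cannot be told apart. The interaction also sets side by side intervals whose first markers differ.

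The interaction, which is the difference of B6-13D2 from B6 minus that of D2 from D2-13B6, was called in 6 of the 99 regions, 1 higher and 5 lower, against 4.55% and 1.99% of all regions (6.54% either way). The 5 were Esrrb 15, Esrrb 16, Esrrb 24, Klf4 1 and Tbx3 2, and the one higher was Klf4 13. The count was 0 without B6-13D2 replicate 1, 2 without B6 replicate 3, B6-13D2 replicate 2 or D2 replicate 1, 3 without B6 replicate 1, 12 without D2 replicate 2, 17 without D2-13B6 replicate 3 and 26 with total counts. Esrrb 16 (86454437 to 86456747, intronic) measured 14.1, 15.5 and 16.1 CPM in B6, 12 and 15.9 in B6-13D2, 7.25, 5.61 and 7.77 in D2-13B6, and 13.1, 14.5 and 13.3 in D2. D2-13B6 alone was low there.

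The tissue label was compared with marker promoters. Over the promoter regions of 8 ES cell genes (a list that holds Zfp42 and Esrrb), the level per kb was 7.78 to 8.32 in B6, 8.03 to 8.67 in B6-13D2, 4.35 to 4.78 in D2-13B6 and 6.58 to 7.58 in D2, and none of these genes lacked an open promoter region. This level weights regions by width, and the widest are Esrrb 19 and Esrrb 24, so it partly repeats the member values. A level without the members was not computed. Outside the members, all listed regions of Pou5f1, Nanog, Dppa3, Tdh and Fgf4 were lower in D2-13B6 than in B6, and that of Sox2 was not called. Of a list of 7 fibroblast genes, 6 had a promoter region and Col3a1 had none. Their level per kb was 5.28 to 5.57 in B6, 4.58 to 5.12 in B6-13D2, 9.21 to 12.1 in D2-13B6 and 6.43 to 6.72 in D2, and 7 of their 12 regions were higher in D2-13B6 than in B6 and none lower, where 44% of all promoter regions were higher and 14.5% lower. Their median log2 fold change was 0.65, against 0.31 over all promoter regions. For example, the region over the Col1a2 start, which encodes a collagen chain, had 4.76 CPM per kb in B6 and 10.5 in D2-13B6. The other higher regions were at Col1a1, Twist1 and Prrx1. Postn (log2 fold change -0.03), the Thy1 regions (0.32 to 0.40) and a Prrx1 region (0.39) were not called. Col1a1 lies on chromosome 11, where regions had a median log2 fold change of 0.15 in D2-13B6 against B6, and -0.13 over all chromosomes. Primitive endoderm promoters gave 6.42 to 7.2 in B6 and 7.73 to 10.6 in D2-13B6, with 3 of 8 regions higher and 2 lower against the same 44% and 14.5%. Their median level was 5.3 per kb in B6 and 5.62 in D2-13B6, and the median log2 fold change was 0. One region at a Dab2 start had 6.81 CPM per kb in B6 and 22 in D2-13B6, while the other Dab2 region (log2 fold change 0.11), Gata4 (-0.19) and Sox7 (-0.12) were not called, and Sox17 (-0.43) and the second Gata6 region (-0.82) were lower. Of 9 promoter regions of formative or primed genes, 1 was higher and 3 lower in D2-13B6 than in B6, and of 8 of trophoblast genes none was higher and 1 lower. The labels do not mention feeder cells. The ES cell level itself includes Esrrb and Zfp42 regions. In D2-13B6 the marker levels move with the lower Esrrb, Tfcp2l1, Prdm14 and Zfp42 regions. They also move with the higher strongest start regions of Klf4, Tbx3, Klf2 and Klf5. The part of the marker levels in those results was not tested.

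Among other genes of the naive network, 48 promoter regions of 25 genes were counted. In D2-13B6 against B6, 20 were lower and 9 higher, against 14.5% and 44% of all promoter regions. In D2 against D2-13B6, 20 were higher and 4 lower, against 6.69% and 16.2% of all promoter regions. D2 against B6 gave 8 higher and 1 lower, against 29.1% and 5.1%, and B6-13D2 against B6 gave none. Lower in D2-13B6 were start regions of Pou5f1 (12.5 to 6.19 CPM per kb), Nanog (7.08 to 3.85), Tdh, a threonine dehydrogenase of ES cells (7.97 to 4.15), and Tcl1 (4.94 to 1.96). A start region each was higher at Stat3 (17.5 to 38), Socs3, its feedback inhibitor (11.8 to 21.4), Klf9 and Lifr, the LIF receptor (5.26 to 9.59). The other Lifr start regions were not called (log2 fold changes -0.50 to 0.01). Another Stat3 region was higher (4.84 to 10.8) and the rest were not called. Il6st, also on the list, had a higher region (7.77 to 10.4) and lower ones (3.25 to 1.75 and 6.92 to 3.13). Stat3 and Socs3 lie on chromosome 11, where regions had a median log2 fold change of 0.15 in D2-13B6 against B6 and -0.13 over all chromosomes.

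Across the 11 libraries, the mean centred log2 CPM of the 8 start regions ran from -0.28 in D2-13B6 replicate 3 to 0.18 in D2 replicate 1. It averages starts that were lower and starts that were higher in D2-13B6, whose differences partly cancel, so it does not follow the line differences above (D2-13B6 libraries -0.14, 0.06 and -0.28). Of 27627 promoter regions outside the loci, the 3 with the highest Pearson correlation to it were at Prkcz (0.979), C130074G19Rik (0.967) and Mast4 (0.962), and 67 exceeded 0.9. This is a description over 11 libraries of 4 lines that share depth and scaling.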

How the data were processed

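ATAC-seq libraries of 4 mouse ES cell lines were analysed from the authors' deposited table, which gives raw counts for each region. Per the file headers, duplicate and mitochondrial reads had been removed before counting. The submitters' processing notes name Trimmomatic 0.39, BWA 0.7.5, Picard 2.0.1, MACS 1.4.2, bedtools 2.9.2, edgeR 3.34.1 and the build mm10, without their roles. Whether reads or fragments were counted, how reads with several matches were treated and whether cuts were shifted for the transposase offset is not given in the sources used here. FAST-ATAC of 100000 cells a library and 150 bp reads are given in the labels. mm10 is a B6 sequence, and D2 variants within regions were not analysed here. No region ran past a GRCm38 chromosome end.

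Members were found by region start within the 8 windows. The members and gene lists were chosen with earlier results of these data known. GENCODE M21 gave gene positions, and the GRCm38 RefSeq genome and promoter table gave sequences, GC content and soft-masked repeats. Regions within 1000 bp of an annotated start were called start or promoter regions. The filter (filterByExpr by group) removed 1496 regions, 257 of them without a count, and no member.

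All 246840 remaining regions entered a single edgeR fit of 11 libraries (edgeR 4.0.16, R 4.3.3, TMM, quasi-likelihood, robust), with 5 comparisons between lines and the interaction. Benjamini-Hochberg adjustment ran over all tested regions, and calls were made at 0.05. Standard errors come from the F statistic. A prior count of 2 entered log2 CPM. Values carry counting error and the spread of technical replicates only. Chi-square per degree of freedom between libraries of a line was 2.06 to 6.33, so none was a copy of another. The procedure was tested on simulated data.

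Regions were named at each locus by rule: the strongest start region, the strongest other region, the called region with the smallest p in each of 4 comparisons, and every region called in the interaction. Exceptions are marked. The marker lists were ES cell, formative or primed, primitive endoderm, trophoblast and fibroblast genes. Alternatives were RLE size factors, total counts, no filter, DESeq2 1.42.0, a fit of the compared libraries alone, a replicate block and leaving out each library.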

Additional observations from a re-analysis of the deposited data

Results flagged for a closer look

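In 6 of the 99 regions (6.06%) the difference of B6-13D2 from B6 was unlike that of D2 from D2-13B6 by edgeR's interaction test (adjusted p under 0.05). The share over all regions was 6.54%, so the count itself is not particular to these loci. With 1 line a genotype, the interval and other differences between the lines cannot be told apart. The first log2 fold change minus the second was -1.12 ± 0.26 (SE) at Esrrb 16 and -0.86 ± 0.26 at Esrrb 15, both in introns of Esrrb, and -0.87 ± 0.25 at Esrrb 24, the strong region over an internal start. It was -0.90 ± 0.25 at Klf4 1, at the far 3′ end of the Klf4 locus over the lincRNA gene Gm12510, and -0.93 ± 0.26 at Tbx3 2, upstream of Tbx3. Klf4 13, an intergenic region just beyond the 3′ end of Klf4 (chromosome 4, 55525434 to 55527108), had the opposite sign, at 0.97 ± 0.31. In Esrrb 15, Esrrb 16, Esrrb 24 and Klf4 1 the D2 libraries were higher than the D2-13B6 libraries by 0.80 to 0.99, while B6-13D2 against B6 gave -0.13 to -0.02, none called. Klf4 13 measured 3.36, 4.88 and 3.46 CPM in B6, 2.96 and 3.99 in B6-13D2, 6.99, 11.4 and 7.94 in D2-13B6, and 3.63, 4.98 and 3.5 in D2.

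Each of the 6 calls was lost in at least 1 of the 11 fits that leave out a library. Esrrb 16 was lost only without B6-13D2 replicate 1 (-0.93), and Tbx3 2 without B6-13D2 replicate 1 or D2 replicate 1 (-0.89 to -0.76). Klf4 1 was lost in 4 of the fits, Esrrb 15 in 6, and Esrrb 24 and Klf4 13 in 7 each, with signs kept. RLE size factors also ended the calls of Esrrb 15 (-0.78, edgeR adjusted p = 0.0635) and Esrrb 24 (-0.79, edgeR adjusted p = 0.0595), and total counts that of Klf4 13 (0.78, edgeR adjusted p = 0.0859). B6-13D2 has 2 libraries, which limits this test.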

How the results depend on the processing

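In B6-13D2 against B6 a fit of those libraries alone gave 2 calls, and every other alternative gave 0. Total counts gave 54 calls in D2 against D2-13B6 (51 higher, 3 lower) and 26 in the interaction (all lower), and shifted log2 fold changes by 0.17 and -0.17 there, by -0.30 in D2-13B6 against B6 and by -0.13 in D2 against B6. Over all settings other than leaving out a library, calls numbered 23 to 54 in D2 against D2-13B6, 36 to 51 in D2 against B6, 58 to 78 in D2-13B6 against B6 and 34 to 51 in D2 against B6-13D2.

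Leaving out single libraries gave 0 to 0 calls in B6-13D2 against B6, 23 to 47 in D2 against D2-13B6, 26 to 41 in D2 against B6, 61 to 69 in D2-13B6 against B6, 18 to 45 in D2 against B6-13D2 and 0 to 17 in the interaction. Of 79 calls at named regions, 57 held in all 11 of these fits and none changed sign. RLE size factors ended 8 of them, total counts 3, DESeq2 2 and the replicate block 2. The replicate block gave 0, 32, 37, 67, 35 and 7 calls in the 6 comparisons, against 0, 31, 37, 69, 35 and 6 without it. Deviations of same-numbered libraries correlated at -0.0486 to 0.0683, and those of differently numbered libraries at -0.148 to 0.162. Centring within lines of 2 or 3 libraries ties the deviations to each other, so these values cannot decide whether the numbers pair the libraries.

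With total counts, the log2 ratio of locus sums of D2-13B6 over B6 was -1.06 at Prdm14, -1.17 at Tfcp2l1, -0.42 at Klf4, -0.31 at Tbx3, -0.96 at Zfp42, -0.16 at Klf2, -1.15 at Esrrb and -0.51 at Klf5. That of D2 over D2-13B6 was 0.52 at Prdm14 and 0.76 at Tfcp2l1, and that of D2 over B6 was -0.53 at Prdm14, -0.40 at Tfcp2l1, -0.20 at Klf4, -0.04 at Klf2 and -0.51 at Esrrb. With RLE size factors the Prdm14 ratio of D2-13B6 over B6 was -0.70. The cause of these shifts was not tested. Depth limits the short regions most, such as Klf5 1 with at most 19 counts in a library.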
